A study of Rattus with 6 samples.

Results

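The genes of sterol and fatty acid synthesis were followed in cultured mesenchymal stem cells from rat bone marrow, which grow attached to plastic and can turn into bone, fat or cartilage cells. The members are 33 genes named for their part in the pathway and matched by symbol to the deposited table, and all 33 were found among its 16690 genes. They comprise 18 enzymes of cholesterol synthesis, 6 regulators and transport genes, and 9 genes of fatty acid synthesis, elongation and desaturation. RNA was sequenced from 3 libraries of rats modelling chronic kidney disease, CKD, and 3 libraries of healthy control rats. All were Sprague Dawley rats labelled wild-type, and the cells came from leg bones, were passaged in culture and had been checked by flow cytometry for lacking CD34 and CD45, per the labels. The design calls the libraries biological replicates, but library names share a start in CKD replicates 1 and 3 and in control replicates 1 and 2. How the kidney disease was brought about, the age of the animals and whether each library is its own animal are not given in the sources used here. Whether the RNA is that of the cells, as the design has it, or of exosomes, as the extract protocol has it, is not settled by the labels.

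Cholesterol is built from acetyl-CoA through mevalonate, a chain of isoprenoid units, squalene and lanosterol, and cells can also take it up from lipoproteins. The transcription factors SREBP1 and SREBP2 raise most genes of the pathway together when sterols in the endoplasmic reticulum run low. SCAP escorts them to the Golgi for cleavage, and the INSIG proteins hold the complex back when sterols are plentiful. SREBP2 is known mainly for sterol genes, and the SREBP1c form for fatty acid genes, which also respond to liver X receptors.

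The recovered depth was 34404037 to 43055203 fragments per CKD library and 38289955 to 46892613 per control library. The fewest fragments behind a member in any library were 380, for Tm7sf2, and the most were 32682, for Cyp51. Libraries did not separate by group alone. Across the genes tested, Pearson r was 0.996 between CKD replicates 2 and 3 and 0.998 between control replicates 2 and 3, as a description only, while CKD replicate 1 was closest to control replicate 1 (r = 0.967). In CKD replicate 1 and control replicate 2 the title and the disease tag contradict each other, and groups follow the titles. All 8 mesenchymal markers were at 1 FPKM or more in every library, FPKM being fragment counts scaled for gene length and library total. Their levels were uneven, summing to 11508, 6471 and 6514 FPKM in CKD replicates 1, 2 and 3, against 11988, 7629 and 7823 FPKM in control replicates 1, 2 and 3. Of the 8, 5 had negative and 3 positive log2 fold changes, and 0 were called. Eng varied most in control, with 11.8, 83.4 and 88.8 FPKM in replicates 1, 2 and 3, against 10.8 to 21.8 FPKM in CKD. The 15 haematopoietic and macrophage markers summed to 308, 3442 and 2300 FPKM in CKD replicates 1, 2 and 3, against 417, 22.5 and 14.3 FPKM in control replicates 1, 2 and 3. Of these markers, C1qc was listed at 0 in control replicate 2, and Adgre1, C1qb and C1qc in control replicate 3. The 13 markers tested all had positive log2 fold changes, with a median of 3.36, and 0 were called. Among them Ptprc, the gene of CD45, had 0.783, 15.5 and 11.4 FPKM in CKD replicates 1, 2 and 3, against 1.33, 0.0140 and 0.0204 FPKM in control replicates 1, 2 and 3. Its RNA was thus present in CKD replicates 2 and 3, and at lower levels in the first replicate of each group, although the labels describe cells without CD45. The adipocyte list, with 5 of its 7 markers in the table, summed to 17.4 to 177 FPKM in CKD and 6.12 to 13.8 FPKM in control. Its 4 tested markers all had positive log2 fold changes, with a median of 2.34 and none called (limma adjusted p of 0.0881 to 0.178). Fabp4, a fatty acid binding protein, had 4.18, 95.1 and 93.0 FPKM in CKD replicates 1, 2 and 3, against 4.23, 1.55 and 1.60 FPKM in control replicates 1, 2 and 3. Lpl, the lipoprotein lipase, had 5.83, 58.5 and 70.3 FPKM in CKD replicates 1, 2 and 3, against 5.99, 0.964 and 0.836 FPKM in control replicates 1, 2 and 3. Both were high in CKD replicates 2 and 3 and close between the first replicates, while the regulators Cebpa and Pparg were higher in every CKD library than in every control library. Plin1, the coat protein of fat droplets, was at no more than 0.0537 FPKM. The 10 proliferation markers summed to 94.5 to 141 FPKM in CKD and 42.1 to 59.0 FPKM in control. Endothelial markers, 4 of 5 in the table, summed to 2.41 FPKM at most, with Pecam1, Cdh5 or Kdr at 0 in 4 libraries. Tek, the remaining marker, had 0.0864 to 0.374 FPKM in CKD and 0.644 to 2.31 FPKM in control, and was too low to be tested.

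As a group, the enzymes of cholesterol synthesis had lower values in CKD than in control. All 18 had log2 fold changes below 0 and the median was -0.52, where 40.6% of the 10638 genes tested lay below 0 and the median was 0.053. In 14 of the 18, every CKD library lay below every control library, which held for 9.59% of the genes tested. After adjustment over all genes tested, 2 of the 33 members were called lower, Pmvk and Tm7sf2, where 0.733% of all genes were called lower. None of the 33 was called higher, against 1.33% of all genes. The 78 lower and 142 higher calls over all genes became 62 and 61 by limma-voom on recovered counts. At an unadjusted p under 0.05, 20 of the 33 were lower and 0 higher, where 7.51% of all genes were lower at that level (limma, two-sided). In bulk samples, fewer cells of a type and less RNA per cell cannot be told apart, and this holds for each value below.

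The steps from acetyl-CoA to farnesyl diphosphate are carried by 7 members, and Pmvk led them. Pmvk (NCBI Gene 310645) encodes phosphomevalonate kinase, which adds the second phosphate to mevalonate. It had 16.2, 13.5 and 13.6 FPKM in CKD replicates 1, 2 and 3, against 26.9, 32.2 and 31.7 FPKM in control replicates 1, 2 and 3. The groups were far apart relative to their spread, and the CKD mean was 47.6% of the control mean. The fall was called, with a CKD mean of 14.4 ± 1.52 FPKM, a control mean of 30.3 ± 2.91 FPKM (SD, n = 3 each) and a log2 fold change of -1.02 ± 0.11 SE on log2(FPKM + 1) (adjusted p = 0.0251 by limma). The call was lost without CKD replicate 2 (adjusted p = 0.185 by limma), CKD replicate 3 (0.211), control replicate 2 (0.139) or control replicate 3 (0.203), with a log2 fold change of -0.98 in each of these fits. It was also lost at log2 fold changes of -1.06 without the libraries whose tags conflict (0.0609), -1.02 with a replicate block (0.0742), -0.76 with a haematopoietic covariate (0.109) and -0.39 with groups by tag (0.768).

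Mvk (NCBI Gene 81727), the mevalonate kinase that acts just before it, measured 10.9, 10.4 and 10.3 FPKM in CKD replicates 1, 2 and 3, against 14.2, 16.3 and 18.7 FPKM in control replicates 1, 2 and 3. The CKD libraries were nearly equal and all below the controls, and the gene was not called (log2 fold change -0.58 ± 0.11 SE, adjusted p = 0.0653 by limma). Within a library, the FPKM ratio of Pmvk to Mvk was 1.29 to 1.49 in CKD and 1.69 to 1.97 in control, so the neighbouring kinases were not lower by the same factor. Idi1 (NCBI Gene 89784), the isomerase that makes the reactive isoprenoid unit, had a CKD mean of 31.3 ± 2.00 FPKM and a control mean of 41.9 ± 2.52 FPKM (SD, n = 3 each). Its groups did not overlap, with 30.1 to 33.6 FPKM in CKD and 40.3 to 44.8 FPKM in control, and its limma adjusted p was 0.0739.

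Hmgcs1 (NCBI Gene 29637) encodes the cytosolic synthase that makes HMG-CoA. It had 95.7, 68.4 and 73.6 FPKM in CKD replicates 1, 2 and 3, against 105, 122 and 122 FPKM in control replicates 1, 2 and 3, with CKD replicate 1 close to control replicate 1 (log2 fold change -0.56 ± 0.15 SE, adjusted p = 0.120 by limma). Acat2 (NCBI Gene 308100), the cytosolic thiolase of the opening step, had 64.0, 37.5 and 43.3 FPKM in CKD replicates 1, 2 and 3, against 61.7, 79.3 and 82.9 FPKM in control replicates 1, 2 and 3. Mvd (NCBI Gene 81726), the decarboxylase that follows Pmvk, had the same arrangement, with 14.2, 9.48 and 10.0 FPKM in CKD replicates 1, 2 and 3 and 13.6, 17.7 and 18.4 FPKM in control replicates 1, 2 and 3. In Acat2 and Mvd the groups overlapped, because CKD replicate 1 lay above control replicate 1. Fdps (NCBI Gene 83791), which makes farnesyl diphosphate, was among the most abundant members, at 187 to 215 FPKM in CKD and 229 to 239 FPKM in control. It had 85.4% of the control level and no overlap (log2 fold change -0.23 ± 0.083 SE, adjusted p = 0.191 by limma).

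The 11 enzymes from squalene to cholesterol held the other called gene. Tm7sf2 (NCBI Gene 293688) encodes a sterol reductase that removes the double bond at carbon 14 after lanosterol demethylation. It measured 10.3, 7.36 and 6.93 FPKM in CKD replicates 1, 2 and 3, against 16.4, 18.6 and 21.0 FPKM in control replicates 1, 2 and 3. All CKD values lay well under the lowest control, and the CKD mean was 43.9% of the control mean, the lowest such share of the 33 members. The fall was called, with a CKD mean of 8.20 ± 1.84 FPKM, a control mean of 18.7 ± 2.27 FPKM (SD, n = 3 each) and a log2 fold change of -1.11 ± 0.17 SE (adjusted p = 0.0439 by limma). The call was lost without CKD replicate 2 (adjusted p = 0.225 by limma), CKD replicate 3 (0.241), control replicate 2 (0.182) or control replicate 3 (0.218), with log2 fold changes from -1.11 to -1.01. It was also lost at log2 fold changes of -1.28 by limma-voom (0.0527), -1.11 without a filter on low values (0.0613), -1.27 without the libraries whose tags conflict (0.0634) and -1.11 with a replicate block (0.107). The log2 fold change was smaller, and the call lost, with a haematopoietic covariate (-0.70, adjusted p = 0.180) and with groups by tag (-0.58, adjusted p = 0.70).

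Cyp51 (NCBI Gene 25427), the demethylase of lanosterol that acts just before Tm7sf2, had 162, 121 and 125 FPKM in CKD replicates 1, 2 and 3, against 231, 230 and 228 FPKM in control replicates 1, 2 and 3. Its controls differed by 1.01-fold between highest and lowest, the narrowest control range of any member, and the CKD libraries lay far below them. It narrowly missed the threshold, with a CKD mean of 136 ± 22.9 FPKM, a control mean of 230 ± 1.40 FPKM (SD, n = 3 each) and a log2 fold change of -0.77 ± 0.13 SE (adjusted p = 0.0508 by limma). Ebp (NCBI Gene 117278), the sterol isomerase also known as emopamil binding protein, measured 19.9, 21.2 and 20.9 FPKM in CKD replicates 1, 2 and 3, against 28.1, 34.0 and 36.5 FPKM in control replicates 1, 2 and 3. The CKD libraries were within 1.07-fold of each other and the controls were higher and more spread (log2 fold change -0.64 ± 0.11 SE, adjusted p = 0.0513 by limma). Both genes were called without CKD replicate 1 (limma adjusted p = 0.00675 for Cyp51 and 0.0420 for Ebp) and without control replicate 1 (0.0428 for Cyp51 and 0.0116 for Ebp). Without any other library, the adjusted p was higher than with all 6, at 0.213 to 0.274 for Cyp51 and 0.233 to 0.269 for Ebp. Under median-of-ratios scaling Ebp was called (adjusted p = 0.0436 by limma) and Cyp51 was not (0.0554).

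Lss (NCBI Gene 81681), the cyclase that closes squalene epoxide into lanosterol, was arranged differently. It had 15.4, 24.8 and 25.8 FPKM in CKD replicates 1, 2 and 3, against 27.3, 49.7 and 52.1 FPKM in control replicates 1, 2 and 3. CKD replicate 1 was the lowest and control replicate 1 the lowest of its own group, and every CKD value lay under every control value. Its log2 fold change of -0.92 ± 0.31 SE was the third in size among the members and was not called (adjusted p = 0.174 by limma). Lss was called without control replicate 1 (log2 fold change -1.21, adjusted p = 0.0446 by limma), but not without any 1 of the others (log2 fold changes of -1.04 to -0.69, adjusted p of 0.195 to 0.463). Without the libraries whose tags conflict, its log2 fold change was -0.56 (adjusted p = 0.401 by limma).

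Smaller differences were seen for the enzymes around Lss and at the end of the chain. Fdft1 (NCBI Gene 29580), the squalene synthase, had a CKD mean of 35.3 ± 2.94 FPKM and a control mean of 41.3 ± 1.53 FPKM (SD, n = 3 each). Sqle (NCBI Gene 29230), the squalene epoxidase and a known control point of the pathway, had 57.6 to 69.1 FPKM in CKD and 71.2 to 78.4 FPKM in control. Neither gene's groups overlapped, and the log2 fold changes were -0.23 ± 0.084 SE for Fdft1 and -0.29 ± 0.10 SE for Sqle (adjusted p = 0.201 and 0.173 by limma). The ratio of Fdft1 to Fdps was 0.172 to 0.180 in CKD and 0.172 to 0.180 in control, so these consecutive enzymes kept one proportion in all 6 libraries.

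Dhcr7 (NCBI Gene 64191), a reductase that can carry out the final step, measured 9.57, 7.29 and 7.0 FPKM in CKD replicates 1, 2 and 3, against 11.3, 11.6 and 11.9 FPKM in control replicates 1, 2 and 3. Sc5d (NCBI Gene 114100), the desaturase before it, had 19.5 to 23.9 FPKM in CKD and 27.6 to 28.1 FPKM in control. Both had tight controls and CKD values that lay wholly under them, with log2 fold changes of -0.50 ± 0.12 SE for Dhcr7 and -0.34 ± 0.089 SE for Sc5d (adjusted p = 0.102 and 0.117 by limma). Nsdhl (NCBI Gene 309262), which removes carboxyl groups from carbon 4 of the sterol ring, had 24.6 FPKM in CKD replicate 1 and 24.8 FPKM in control replicate 1, and its groups were separated by that small gap only, with 19.3 to 24.6 FPKM in CKD and 24.8 to 28.1 FPKM in control. Msmo1 (NCBI Gene 140910), the oxidase acting before Nsdhl, had 184 to 201 FPKM in CKD and 192 to 231 FPKM in control. Hsd17b7 (NCBI Gene 29540), the reductase acting after it, had 4.79 to 6.11 FPKM in CKD and 5.70 to 6.11 FPKM in control. Both had overlapping groups, with 88.5% of the control level for Msmo1 and 90.2% for Hsd17b7.

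**Figure D1:**
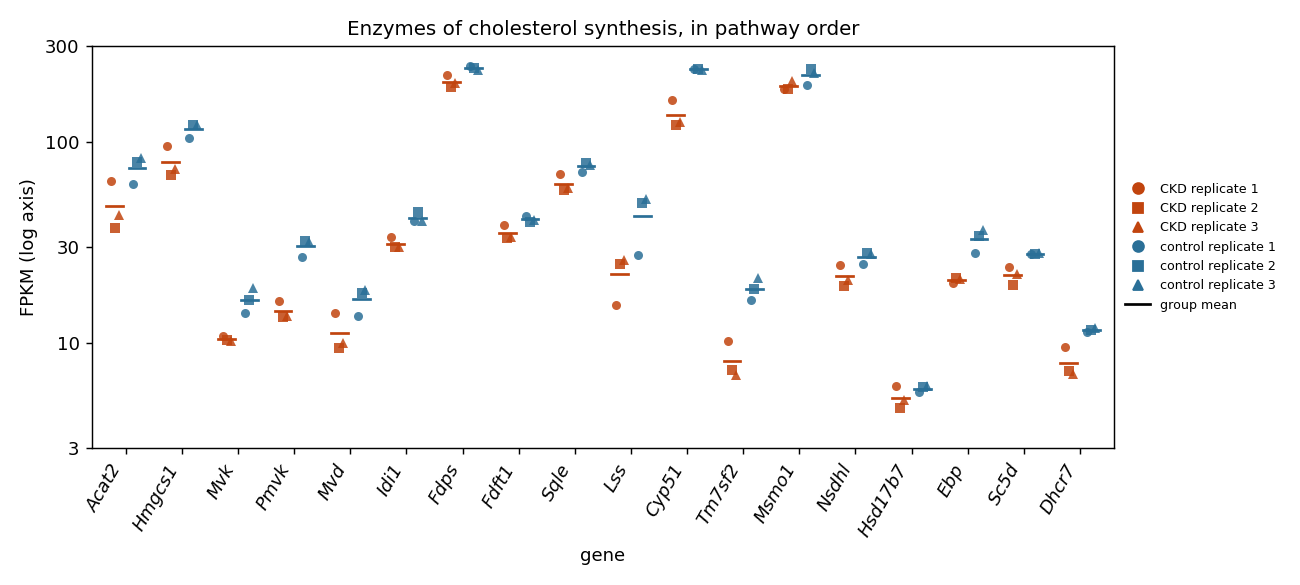
FPKM on a log axis for the 18 enzymes of cholesterol synthesis in pathway order, with one point per library (circle, square and triangle for replicates 1, 2 and 3), CKD left of control, and a bar at each group mean (n = 3 each). CKD points lie under all control points in 14 of the 18 genes, and the CKD mean is 47.6% of the control mean for Pmvk and 43.9% for Tm7sf2.

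**Figure D2:**
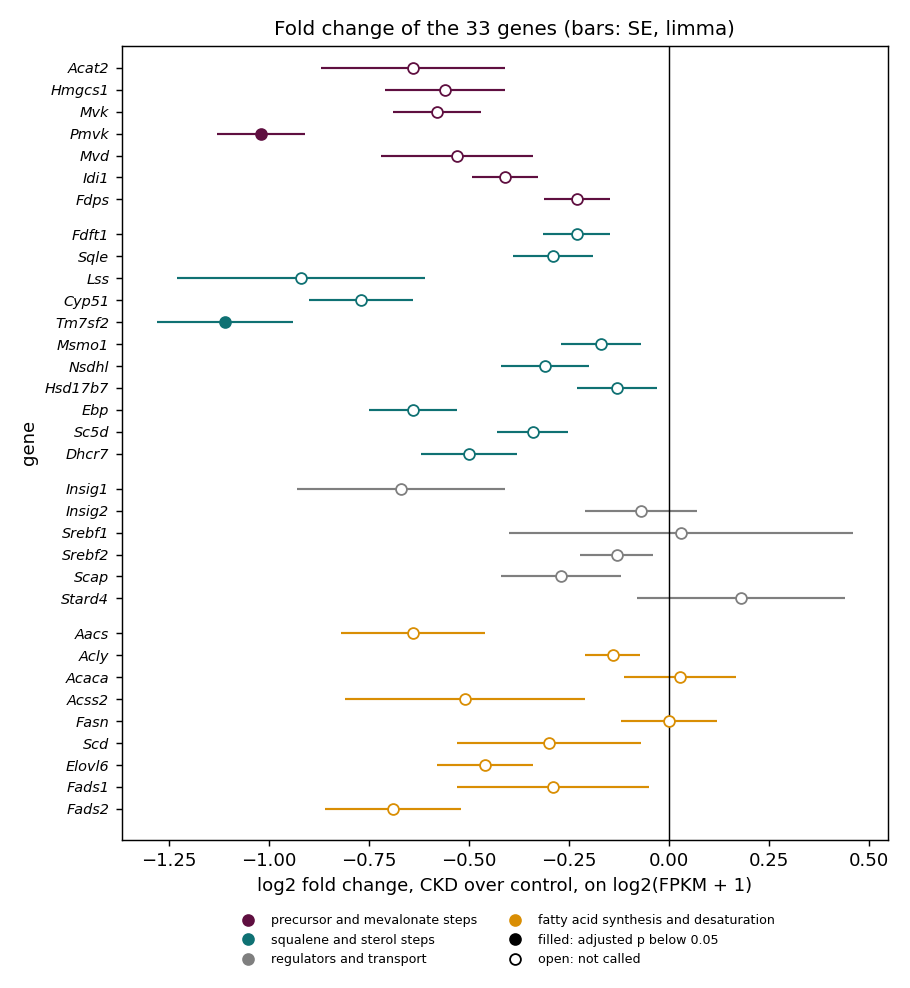
Log2 fold change of CKD over control on log2(FPKM + 1) for the 33 genes, grouped by role, with bars of 1 SE from limma. Filled points are the 2 genes with an adjusted p below 0.05, Pmvk at -1.02 and Tm7sf2 at -1.11, and all 18 enzymes of cholesterol synthesis lie left of 0.

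The 6 regulators and transport genes included no called gene. They had a median log2 fold change of -0.10, and 4 of 6 were negative (5 of 6 under median-of-ratios scaling), where 40.6% of all genes were. All 6 had overlapping groups, as had 7676 of the 10638 genes tested, and the lowest adjusted p was 0.214 (limma). Insig1 (NCBI Gene 64194), which retains SCAP in the endoplasmic reticulum and is itself a well-known SREBP target, was the most abundant. It had 54.8, 73.4 and 80.5 FPKM in CKD replicates 1, 2 and 3, against 76.9, 124 and 138 FPKM in control replicates 1, 2 and 3. As in Lss, the first replicate was the lowest library of each group, and control replicate 1 lay inside the CKD range (log2 fold change -0.67 ± 0.26 SE, adjusted p = 0.214 by limma). Insig1 was called without control replicate 1 (log2 fold change -0.92, adjusted p = 0.0452 by limma), but not without any 1 of the others (log2 fold changes of -0.78 to -0.50, adjusted p of 0.269 to 0.523). Without the libraries whose tags conflict, its log2 fold change was -0.42 (adjusted p = 0.494 by limma).

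Insig2 (NCBI Gene 288985), its paralogue, measured 6.84, 10.2 and 9.13 FPKM in CKD replicates 1, 2 and 3, against 8.69, 9.33 and 9.29 FPKM in control replicates 1, 2 and 3, with full overlap. The FPKM ratio of Insig1 to Insig2 was 7.2 to 8.82 in CKD and 8.84, 13.3 and 14.9 in control replicates 1, 2 and 3. The pair was thus least unequal in the CKD libraries, with control replicate 1 next to them.

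Srebf2 (NCBI Gene 300095), which encodes SREBP2, was nearly flat, at 17.5 to 20.2 FPKM in CKD and 19.4 to 22.0 FPKM in control (log2 fold change -0.13 ± 0.091 SE, adjusted p = 0.429 by limma). Srebf1 (NCBI Gene 78968), which encodes the SREBP1 forms, had 16.4, 12.4 and 12.9 FPKM in CKD replicates 1, 2 and 3, against 27.4, 8.18 and 10.7 FPKM in control replicates 1, 2 and 3. Control replicate 1 was the highest library and control replicate 2 the lowest, a 3.35-fold range inside the control group and the widest such range of the 33 members. The table gives 1 value for the gene, so its SREBP1a and SREBP1c forms were not separated. Its log2 fold change was 0.030 ± 0.43 SE, and its sign turned to -0.30 without control replicate 2, -0.046 under median-of-ratios scaling and -0.037 by limma-voom.

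Scap (NCBI Gene 301024), the escort of the SREBPs, had 20.0, 13.7 and 15.2 FPKM in CKD replicates 1, 2 and 3, against 17.6, 20.3 and 21.2 FPKM in control replicates 1, 2 and 3. Stard4 (NCBI Gene 291699), a carrier that moves cholesterol through the cytosol, measured 2.66, 6.19 and 5.68 FPKM in CKD replicates 1, 2 and 3, against 3.98, 3.92 and 3.90 FPKM in control replicates 1, 2 and 3. The Stard4 controls were within 1.02-fold of each other, and CKD libraries lay on both sides of them. The log2 fold change of Stard4 was 0.18 ± 0.26 SE (adjusted p = 0.723 by limma), and it was 0.0036 without CKD replicate 2 (adjusted p = 0.997) and 0.057 without CKD replicate 3 (adjusted p = 0.957). Without CKD replicate 1, Stard4 was the only member called higher in CKD (log2 fold change 0.49, adjusted p = 0.0201), in a fit that called 9.80% of all genes higher.

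Among the 9 fatty acid genes, Aacs, Acly, Elovl6 and Fads2 had every CKD library below every control library, 4 of 9 where 9.59% of all genes did. The median log2 fold change of the 9 was -0.30, with 7 of 9 negative, where 40.6% of all genes were (9 of 9 under median-of-ratios scaling), and none called (lowest adjusted p = 0.108 by limma). Fads2 (NCBI Gene 83512), the delta-6 desaturase of polyunsaturated fatty acids, had 45.7, 43.6 and 43.1 FPKM in CKD replicates 1, 2 and 3, against 93.8, 63.1 and 62.0 FPKM in control replicates 1, 2 and 3. The CKD libraries were nearly level and all below the controls, of which replicate 1 was far the highest (log2 fold change -0.69 ± 0.17 SE, adjusted p = 0.108 by limma). The CKD mean was 44.1 ± 1.35 FPKM and the control mean 73.0 ± 18.1 FPKM (SD, n = 3 each). Fads1 (NCBI Gene 84575), the delta-5 desaturase and the neighbouring gene of Fads2 in the reference gene table, had 37.9, 38.7 and 35.4 FPKM in CKD replicates 1, 2 and 3, against 67.9, 38.2 and 36.8 FPKM in control replicates 1, 2 and 3. In Fads1 the difference lay in control replicate 1 alone, and the other control libraries were within the CKD range. The log2 fold change of -0.29 ± 0.24 SE shrank to -0.0064 without that library.

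Scd (NCBI Gene 246074), a stearoyl-CoA desaturase that makes monounsaturated fatty acids, had the same high control. It measured 14.7, 18.1 and 23.7 FPKM in CKD replicates 1, 2 and 3, against 30.3, 19.5 and 20.5 FPKM in control replicates 1, 2 and 3, with overlap (log2 fold change -0.30 ± 0.23 SE, adjusted p = 0.483 by limma). Its relative Scd2, not a member, was the more abundant desaturase, at 259 to 327 FPKM in CKD and 236 to 457 FPKM in control, again highest in control replicate 1. Srebf1, Fads1, Fads2 and Scd were thus all highest in control replicate 1. That library was the highest for 5 of the 9 fatty acid genes and for 3 of the 18 sterol enzymes, where it was the highest for 16% of all genes tested.

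Aacs (NCBI Gene 65984), which activates acetoacetate for lipid synthesis, was arranged like the sterol enzymes, with 12.6, 9.64 and 10.4 FPKM in CKD replicates 1, 2 and 3, against 13.6, 20.2 and 19.4 FPKM in control replicates 1, 2 and 3. Elovl6 (NCBI Gene 171402), which elongates palmitate, had 5.26, 3.62 and 4.30 FPKM in CKD replicates 1, 2 and 3, against 6.32, 6.55 and 6.19 FPKM in control replicates 1, 2 and 3. Neither overlapped between groups, and the log2 fold changes were -0.64 ± 0.18 SE for Aacs and -0.46 ± 0.12 SE for Elovl6 (adjusted p = 0.126 and 0.121 by limma). Acss2 (NCBI Gene 311569), the cytosolic acetyl-CoA synthetase, had 4.10, 5.89 and 6.06 FPKM in CKD replicates 1, 2 and 3, against 4.71, 9.97 and 10.4 FPKM in control replicates 1, 2 and 3. Like Lss and Insig1, Acss2 was lowest in the first replicate of each group, and its groups overlapped through control replicate 1.

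The core enzymes of palmitate synthesis were near equal between groups. Fasn (NCBI Gene 50671), the fatty acid synthase, had a CKD mean of 21.0 ± 2.79 FPKM and a control mean of 21.0 ± 1.89 FPKM (SD, n = 3 each), with a log2 fold change of 0.0013 ± 0.12 SE. Acaca (NCBI Gene 60581), the acetyl-CoA carboxylase that feeds it, had a CKD mean of 7.83 ± 0.883 FPKM and a control mean of 7.69 ± 1.28 FPKM (log2 fold change 0.027 ± 0.14 SE). Both signs turn negative when libraries are rescaled by median-of-ratios, to -0.076 for Fasn and -0.044 for Acaca. Acly (NCBI Gene 24159), which cleaves citrate to acetyl-CoA for both pathways, had 41.6 to 45.5 FPKM in CKD and 46.8 to 48.9 FPKM in control, a small difference without overlap (log2 fold change -0.14 ± 0.069 SE, adjusted p = 0.302 by limma).

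**Figure D3:**
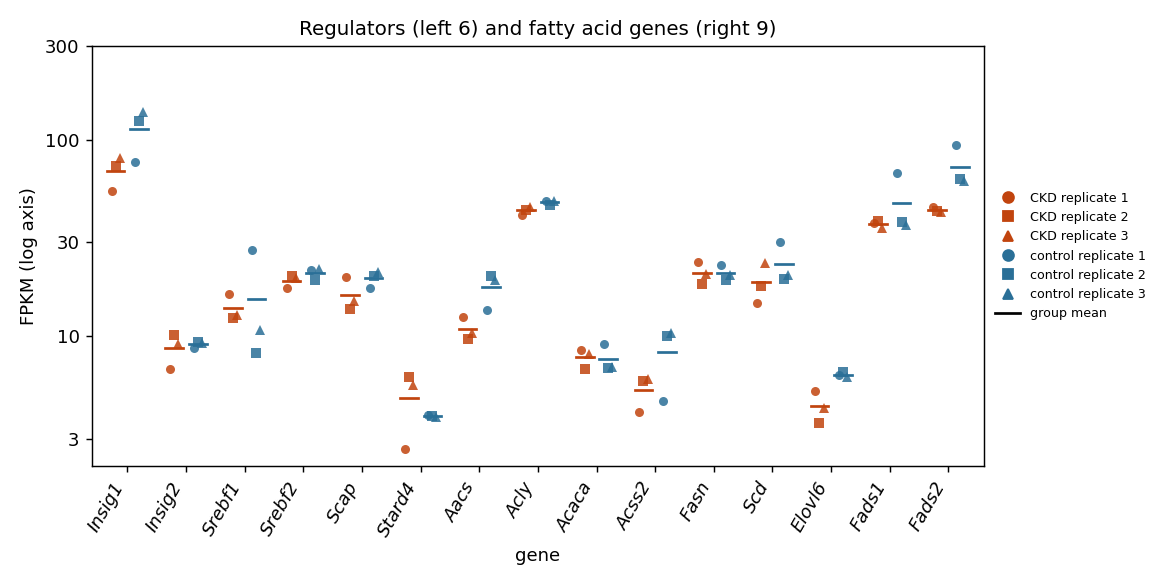
FPKM on a log axis for the 6 regulators and transport genes (left) and the 9 fatty acid genes (right), one point per library as circle, square or triangle for replicates 1, 2 and 3, CKD left of control, bars at group means (n = 3 each). Srebf1, Scd, Fads1 and Fads2 are highest in control replicate 1, while Fasn and Acaca overlap between groups.

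Since the first replicates stood apart, the comparison was also read within sets of libraries. Differences within sets are descriptions without a test, while the calls given here come from limma fits. CKD replicate 1 was below control replicate 1 in 28 of the 33 members and in 15 of the 18 sterol enzymes, where 49.2% of all genes tested were. CKD replicates 2 and 3 were both below control replicates 2 and 3 in all 18 sterol enzymes, where 30.6% of all genes were. Fits without the first replicates called more genes of the whole table, lower and higher. Without CKD replicate 1, 14 of the 33 members were called lower, where 4.29% of all genes were. Without control replicate 1, 11 members were called lower and 0 higher, where 5.03% of all genes were called lower and 6.99% higher. Without both, 24 were called lower, including all 18 sterol enzymes, where 20.5% of all genes were called lower. Stard4 and Srebf1 were called higher, where 33.2% of all genes were (limma). That fit holds only CKD replicates 2 and 3 (r = 0.996) and control replicates 2 and 3 (r = 0.998). Whether each library is its own animal is not given, so the spread within these groups could be technical. The sterol enzymes differed by a median of -0.18 on log2(FPKM + 1) between the first replicates and by -0.67 between the means of the other replicates. For the regulators these medians were -0.37 and 0.00059, and for the fatty acid genes -0.23 and -0.092. The sterol enzymes thus had lower CKD medians in both sets, with the larger difference in replicates 2 and 3, while Srebf1, Stard4, Scd and Fads1 differed by -0.70, -0.44, -0.99 and -0.83 between the first replicates and by 0.40, 0.50, 0.047 and -0.016 between the others, in that order of genes.

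**Figure D4:**
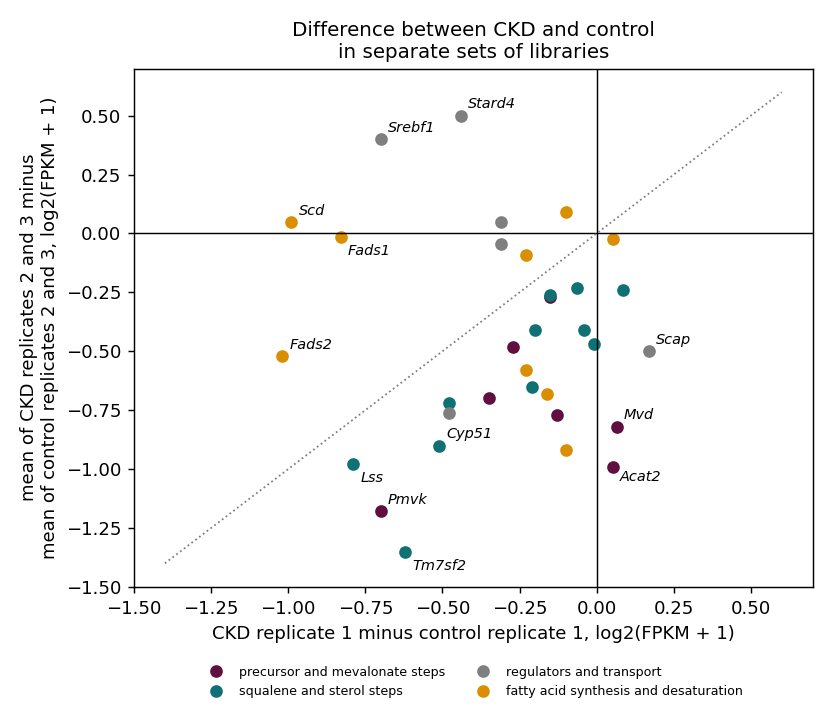
Each point is 1 of the 33 genes. The horizontal axis gives CKD replicate 1 minus control replicate 1 and the vertical axis the mean of CKD replicates 2 and 3 minus the mean of control replicates 2 and 3, both in log2(FPKM + 1), and the dotted line marks equal differences. Sterol enzymes lie below 0 on the vertical axis, and Scd, Fads1 and Srebf1 lie far left and near or above 0.

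Summed over the 18 sterol enzymes, the level was 1013, 856 and 904 FPKM in CKD replicates 1, 2 and 3, against 1179, 1299 and 1292 FPKM in control replicates 1, 2 and 3, so the CKD mean was 73.5% of the control mean. The sum was lowest in the libraries with the highest haematopoietic marker sums (3442 and 2300 FPKM in CKD replicates 2 and 3) and highest in those with the lowest (22.5 and 14.3 FPKM in control replicates 2 and 3). CKD replicate 1 and control replicate 1 had haematopoietic sums of 308 and 417 FPKM and sterol sums of 1013 and 1179 FPKM. Of the 18 enzymes, 15 were lower in CKD replicate 1 than in control replicate 1. That is 1 library of each group, and the title and tag of CKD replicate 1 contradict each other. When the mean of the haematopoietic list entered the fit as a covariate, 17 of the 18 sterol enzymes stayed negative, their median was -0.20, and no member was called, where 0.103% of all genes were called lower and 0.0564% higher. In that fit the log2 fold changes of the 18 ran from -0.90 for Lss to 0.066 for Hsd17b7. The list mean differs between the groups in replicates 2 and 3, so the fit cannot tell other cells and CKD apart. How much other cells contribute to the sterol differences was not tested. Of the 10 proliferation markers, 6 were called higher, where 1.33% of all genes were. All 10 were higher in every CKD library than in every control library, which held for 18.3% of all genes. Their part in the result was not tested.

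**Figure D5:**
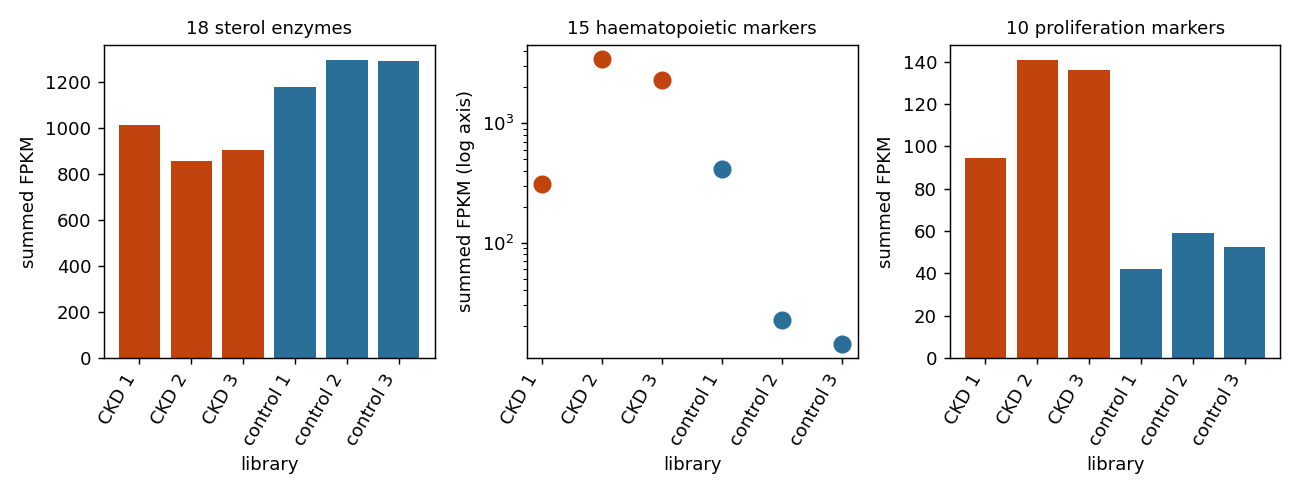
Summed FPKM per library for the 18 sterol enzymes (bars from 0), the 15 haematopoietic and macrophage markers (points on a log axis) and the 10 proliferation markers (bars from 0), with CKD libraries left of control libraries. The sterol sum is 856 to 1013 in CKD and 1179 to 1299 in control, and the haematopoietic sum is 308 to 3442 in CKD and 14.3 to 417 in control.

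Other genes of lipid synthesis lay on both sides of 0. Of 53 further genes in 6 lists, 52 were in the table and 50 were tested, of which 21 lay below 0 and 29 above it (30 and 20 under median-of-ratios scaling). The median was 0.017 (-0.043 under that scaling) and none was called. The 10 genes of the isoprenoid branches, which draw on the same farnesyl diphosphate, had a median of 0.017 (-0.041 under that scaling). Among them Fnta, a subunit of the farnesyl and geranylgeranyl transferases, had overlapping groups, with highest values of 30.8 FPKM in CKD and 31.6 FPKM in control, and the lowest adjusted p was that of Pdss1, of ubiquinone side chain synthesis, at 2.04 to 2.80 FPKM in CKD and 1.38 to 1.77 FPKM in control (adjusted p = 0.123 by limma). The 10 genes of SREBP processing and sterol-regulated degradation had a median of -0.030 (-0.11 under that scaling). Mbtps1, the site-1 protease that makes the opening cut in SREBPs, had 30.4, 29.2 and 29.6 FPKM in CKD replicates 1, 2 and 3, against 38.2, 32.8 and 33.8 FPKM in control replicates 1, 2 and 3 (log2 fold change -0.22 ± 0.081 SE, adjusted p = 0.189 by limma).

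In chain elongation and activation, 7 of 11 tested genes were negative, where 40.6% of all genes were, with a median of -0.062. In 2 of the 11 every CKD library lay below every control library, and in 2 above, where 9.59% and 18.3% of all genes did. The 2 above were Acsl4 and Hacd2, with log2 fold changes of 0.62 and 0.38. Tecr, the reductase that ends each elongation cycle, had 60.8 to 64.3 FPKM in CKD and 75.5 to 93.6 FPKM in control (adjusted p = 0.0950 by limma). Elovl5, which elongates polyunsaturated fatty acids, had 42.0 to 46.7 FPKM in CKD and 53.2 to 59.5 FPKM in control (adjusted p = 0.10 by limma). Acacb was at most 0.0130 FPKM, so Acaca was the acetyl-CoA carboxylase measured in these libraries. Of the genes of citrate and NADPH supply, 3 of 6 tested were negative, and Slc25a1, the mitochondrial citrate carrier, had 32.2 to 37.0 FPKM in CKD and 41.2 to 44.8 FPKM in control (adjusted p = 0.108 by limma). In glycerolipid synthesis, 4 of 6 were positive (3 of 6 under median-of-ratios scaling), and Gpam, the acyltransferase of the opening step, had 5.51 to 6.16 FPKM in CKD and 4.56 to 4.90 FPKM in control (adjusted p = 0.136 by limma).

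The log2 fold changes of the liver X receptor genes and their targets were above 0 in 7 of 7 (5 of 7 under median-of-ratios scaling and by limma-voom, where Nr1h2 and Nr1h3 turned), where 59.4% of all genes were, with a median of 0.54 and none called. They ranged down to 0.0010 for Nr1h3, which encodes a liver X receptor. Between the first replicates, Nr1h3 (-0.19), Abca1 (-0.62), Abcg1 (-0.65), Mylip (-0.23) and Lpcat3 (-0.31) were lower in CKD on log2(FPKM + 1), while between the means of replicates 2 and 3 they were higher (0.094, 1.92, 2.48, 0.93 and 0.32, in that order). The remaining genes of the list did not change in this way, with 1.54 and 6.12 for Apoe and 0.19 and -0.0021 for Nr1h2 in these sets. Apoe, which encodes an apolipoprotein of macrophages and other cells, measured 24.2, 606 and 369 FPKM in CKD replicates 1, 2 and 3, against 7.65, 6.07 and 5.56 FPKM in control replicates 1, 2 and 3. Abcg1, an exporter of cholesterol, had 1.17, 5.21 and 4.14 FPKM in CKD replicates 1, 2 and 3, against 2.41, 0.0136 and 0.0148 FPKM in control replicates 1, 2 and 3. Both were highest in CKD replicates 2 and 3, where the haematopoietic sums were 3442 and 2300 FPKM (limma adjusted p = 0.114 for Apoe and 0.249 for Abcg1), and the part of other cells in these values was not tested.

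In the authors' deposited table, 15 of the 33 members had a q-value under 0.05 and lower values in CKD, and 0 had higher ones, where 4.60% of its 16690 genes were lower at that level and 6.72% higher. Among the 10638 genes tested here, which include all members, 636 were lower and 632 higher at that level. The 15 comprised 10 sterol enzymes, Insig1 and 4 fatty acid genes. The lowest q-values among members in the authors' deposited table were those of Pmvk (2.34e-09), Tm7sf2 (1.39e-05), Ebp (1.44e-05) and Cyp51 (0.000188), with log2 fold changes of -1.15, -1.26, -0.75 and -0.83. Of the members with both groups near equal here, Fasn had a q-value of 0.868 and Acaca one of 0.914 in the authors' deposited table. These values come from the same 6 libraries and are not independent of those above.

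Close relatives could share fragments with some members. Acat2l1, a relative of Acat2, had 1.35 to 1.58 FPKM in CKD and 0.347 to 0.804 FPKM in control, Idi2 was at most 0.211 FPKM in every library, and Scd2 exceeded Scd in every library, so how fragments are split between Scd and Scd2 is uncertain. Idi1 overlaps Wdr37 (2.35 to 3.00 FPKM in CKD and 2.42 to 2.69 FPKM in control) and Srebf1 overlaps Rai1 (2.00 to 2.32 FPKM in CKD and 1.77 to 2.36 FPKM in control) in the reference gene table of another assembly, and whether counting used strand is not given in the sources used here.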

How the data were processed

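Libraries were made with a kit that selects poly-A RNA and marks strand, per the labels' protocols. The tools that the submitters' processing notes list for the authors are, without role or order, DESeq 1.34.1, DESeq2 1.22.2, HTSeq 0.11.2, SAMtools 1.9, HISAT2 2.1.0 and FastQC 0.11.9, on the build mRatBN7.2. Per the file headers, the authors deposited FPKM by library, mean normalized counts by group, the fold and its log2 value, and p-values with q-values, all written with decimal commas.

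Fragment counts were recovered from FPKM and the group means, and all 100140 values were whole within 0.01 (largest deviation 0.000385). The main comparison used limma 3.58.1 under R 4.3.3. Values were log2(FPKM + 1), a scale that understates changes of low genes, the variance prior followed mean expression, and tests were two-sided. Of the genes, 10638 had at least 1 FPKM in at least 3 libraries, all 33 members among them, and p-values were adjusted over these by the Benjamini-Hochberg method at 0.05. The fit was run on simulated counts with known folds. These held no outlying libraries, conflicting tags or other cells, so that run cannot show how stable the calls are here. P-values measure the spread of these libraries only, which could be technical. The counted fragments are not molecules, so counts carry amplification as well.

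Members and lists were chosen with earlier results of these data known. All members are named, and of each other pathway list up to 2 genes of lowest adjusted p. Fnta, Acacb, Acsl4, Hacd2, further liver X receptor genes, single genes of the marker lists, and the relatives and neighbours of members were named after their values were seen. The reference gene table is of another assembly (GRCr8) and served for names, gene numbers and neighbours only. Alternatives were limma-voom on the recovered counts, no filter, a pseudocount of 0.1, median-of-ratios scaling, a replicate block, fits without libraries, groups by tag, and the haematopoietic list mean as covariate.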

Additional observations from a re-analysis of the deposited data

How the results depend on the processing

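The log2 fold changes of all 18 sterol enzymes stayed below 0 under 13 of the 15 alternatives, with 16 of them below 0 when groups followed the disease tag and 17 with the haematopoietic covariate. The calls were far less stable. Members called lower numbered 3 under median-of-ratios scaling (Pmvk, Tm7sf2 and Ebp) and 2 with a pseudocount of 0.1, against 2 in the main comparison. They numbered 1 by limma-voom (Pmvk), 1 without a filter (Pmvk), 0 without the libraries whose tags conflict, 0 with groups by tag and 0 with the covariate. Leaving out libraries gave 0 to 24 members called lower (0 to 14 when 1 library was left out, 24 without both first replicates) and 0 to 2 called higher. The members' median log2 fold change of -0.34 was -0.44 by limma-voom, -0.19 with groups by tag and -0.25 with the covariate, and -0.48 to -0.31 with libraries left out. The cause was not tested. Replicate numbers did not pair the libraries (correlation of same-numbered deviations 0.036, -0.0313 and 0.109), and with the number as a replicate block 1 member, Lss, was called lower (limma adjusted p = 0.0495), with 0.0742 for Pmvk and 0.107 for Tm7sf2. Over all genes, calls lower and higher were 78 and 142 in the main comparison, 28 and 60 with the block, 52 and 81 without a filter, 106 and 130 under median-of-ratios scaling, 449 and 1025 with CKD replicate 1 left out, 527 and 732 with control replicate 1 left out, and at most 7 and 3 without any 1 of the other libraries.

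Signs of members turned as follows. With groups by tag, the log2 fold change was 0.17 for Lss, 0.048 for Msmo1, 0.11 for Insig1, 0.19 for Insig2, -0.59 for Srebf1, -0.15 for Acaca, 0.23 for Acss2 and -0.19 for Fasn. With the covariate, it was 0.066 for Hsd17b7, -0.43 for Srebf1, 0.12 for Scap, -0.39 for Stard4 and -0.023 for Acaca. Without the libraries whose tags conflict, it was 0.094 for Insig2, -0.42 for Srebf1, -0.091 for Acaca and -0.14 for Fasn. By limma-voom, it was -0.037 for Srebf1, -0.049 for Acaca and -0.079 for Fasn, and under median-of-ratios scaling -0.046, -0.044 and -0.076 for these genes in that order. With libraries left out, values ran from -0.18 to 0.077 for Insig2, -0.30 to 0.52 for Srebf1, -0.035 to 0.15 for Acaca, -0.092 to 0.09 for Fasn and -0.47 to 0.047 for Scd.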
